A study of Mus musculus with 21 samples.

Results

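The genes described here are 10 genes of lipoprotein particles, cholesterol export and lipid storage: Apoe, Apoc1, Apod, Clu, Abca1, Abcg1, Lpl, Soat1, Plin2 and Plin4. They were chosen by symbol from the 64361 genes of the count table, and each of the 10 symbols matched 1 row. Cortex and hippocampus libraries were made from GA-Camk2a and control mice, all on a C57BL/6J background and 30 to 40 weeks of age. GA-Camk2a mice carry a GFP-tagged poly-GA transgene, which encodes one of the dipeptide repeat proteins of C9orf72 ALS and is switched on in excitatory neurons by Camk2a-Cre. The labels call the other mice ctrl and do not say which of the alleles they carry. The Cre driver limits the transgene to these neurons, whereas the libraries were made from whole tissue with its glia and vessels. There were 5 control and 6 GA-Camk2a libraries of cortex and 4 control and 6 GA-Camk2a libraries of hippocampus, from 11 mice, of which 10 gave both tissues. These numbers follow the sample labels, whereas the study's text has the control numbers of the tissues the other way round.

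Neurons and glia of the adult brain exchange cholesterol on lipoprotein particles that astrocytes and microglia assemble around apolipoproteins. ATP-binding cassette transporters move cholesterol and phospholipid from the cell onto these particles, and the genes of several of them are targets of the liver X receptors, nuclear receptors that respond to oxidised sterols. Cholesterol that is not exported can be esterified and stored in lipid droplets, whose surface carries perilipins. Microglia that take up myelin and dying cells are known to face a high load of cholesterol.

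Total counts per library ranged from 1048201 to 5888102, and were highest on average in hippocampus controls (3777209) and close to each other in cortex controls (2092581) and GA-Camk2a hippocampus (2179734). The transgene itself gave too few GFP counts to check the labels, from 0 to 2 in cortex controls, 0 to 4 in GA-Camk2a cortex, 0 in hippocampus controls and 0 to 1 in GA-Camk2a hippocampus. Marker genes of the choroid plexus, an epithelium that lies against the hippocampus, set several hippocampus libraries apart. Their summed level was over 20000 CPM (counts scaled to a common library size) in controls 20 and 37 and in GA-Camk2a mice 16, 30 and 35, and between 1642 and 10647 CPM in the other hippocampus libraries. Results in hippocampus are therefore given with and without these 5 libraries where the call differed. In GA-Camk2a mouse 41 the markers of leptomeningeal fibroblasts summed to 562 CPM in hippocampus, against 172 to 244 CPM in the other GA-Camk2a hippocampus libraries.

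The RefSeq start sites of 6 of the 10 genes were matched in the mouse build GRCm38.p6, and the 250 bases before the start are shown for Abca1, Apoe and Apod, which rose in both tissues. They are written 5′ to 3′ on the minus strand, which all 3 genes use, and capitals mark the motifs searched for. The Abca1 stretch lies at chr4:53159896-53160145, that of Apoe at chr7:19699189-19699438 (the most upstream of 3 start sites) and that of Apod at chr16:31314809-31315058.
Abca1: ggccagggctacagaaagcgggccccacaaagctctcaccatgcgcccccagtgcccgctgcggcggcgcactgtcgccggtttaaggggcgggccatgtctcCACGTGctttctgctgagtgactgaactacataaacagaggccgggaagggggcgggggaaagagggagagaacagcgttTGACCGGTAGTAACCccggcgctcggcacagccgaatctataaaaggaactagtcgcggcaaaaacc
Apoe: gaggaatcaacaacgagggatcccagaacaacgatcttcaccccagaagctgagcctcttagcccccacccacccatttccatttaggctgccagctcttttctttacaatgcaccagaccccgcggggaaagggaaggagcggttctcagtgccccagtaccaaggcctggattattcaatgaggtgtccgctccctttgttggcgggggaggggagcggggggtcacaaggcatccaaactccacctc
Apod: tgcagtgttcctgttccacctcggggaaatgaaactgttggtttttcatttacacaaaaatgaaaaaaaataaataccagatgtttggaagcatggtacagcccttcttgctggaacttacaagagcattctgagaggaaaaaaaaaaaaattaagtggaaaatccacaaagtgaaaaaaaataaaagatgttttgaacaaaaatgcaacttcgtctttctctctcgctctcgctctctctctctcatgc

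Motifs were searched on both strands of the 300 bases from 250 before to 50 after each start. The strict liver X receptor repeat, AGGTCA and AGGTCA with 4 bases of any kind between them, was in 0 of the 8 windows of the matched genes and in 0.0152% of all 32851 windows. A looser form, GGTNA and GGTCA with 5 bases of any kind between them, was written with the Abca1 sequence in view, so its match there is no finding. It lies between bases -67 and -53 of Abca1, where the printed strand reads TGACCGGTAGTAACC, and 0.207% of all windows hold it. The E-box CACGTG lies between bases -147 and -142 of Abca1 and between bases -4 and 1 of Plin2, and is in 7.15% of all windows. The matches do not overlap, and none says that a factor binds.

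The 4 genes of secreted lipid carriers among the members, Apoe, Apoc1, Apod and Clu, were higher in GA-Camk2a mice and passed the test in each tissue. Of these, Apoc1 entered the cortex test only with the help of GA-Camk2a libraries, so that its pass there is a description. Apoe, the main lipoprotein component made in the brain, was measured in cortex at 3549, 4421, 3188, 4129 and 4176 CPM in controls 11, 20, 31, 37 and 38. In GA-Camk2a cortex the lowest of the 6 libraries had 6533, the median was 7183 and the highest had 9025 CPM. No GA-Camk2a library overlapped with a control, and the gap between the groups was larger than the range within controls. Apoe was 2.02-fold higher in cortex (log2 fold change 1.02 ± 0.11 (SE), edgeR adjusted p = 1.54e-06). In hippocampus controls 11, 20, 31 and 37 had 3493, 4436, 3637 and 4085 CPM, and GA-Camk2a mice had 6003 at the lowest, 7017 at the median and 8048 at the highest. Again the groups were apart, and the fold was 1.91 (0.94 ± 0.11, adjusted p = 6.50e-05). In bulk tissue, more cells that make a transcript and more transcript per cell cannot be told apart, which holds for each rise and fall given here.

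Clu encodes clusterin, a secreted chaperone that also rides on lipoproteins and is made largely by astrocytes. Its level in cortex was 936, 871, 858, 926 and 975 CPM in the controls and 1494, 1711 and 2267 CPM at the lowest, median and highest GA-Camk2a library. Hippocampus controls had 943, 1119, 911 and 1129 CPM, and GA-Camk2a libraries 1651, 1908 and 2116 CPM at the lowest, median and highest. Groups did not overlap in either tissue. Clu rose 2.00-fold in cortex (1.00 ± 0.10, adjusted p = 8.69e-07) and 1.96-fold in hippocampus (0.97 ± 0.09, adjusted p = 1.57e-05). By p-value, Clu ranked 21 of 14884 genes in hippocampus and 44 of 13058 in cortex, and Apoe 66 and 48.

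Apod encodes apolipoprotein D, a lipocalin that carries small lipids such as arachidonic acid rather than building lipoprotein particles. Cortex controls were tightly grouped at 82.2, 79.8, 69.5, 78.7 and 80.1 CPM. The GA-Camk2a libraries of cortex reached from 112 over a median of 141 to 203 CPM. In hippocampus the controls had 65.2, 67.6, 72.7 and 70.6 CPM and the GA-Camk2a libraries 91.6 at the lowest, 149 at the median and 273 at the highest. Every GA-Camk2a library lay above every control in each tissue, but the GA-Camk2a mice differed far more among themselves than the controls did, with coefficients of variation of 43.5% and 4.79% in hippocampus and 24.0% and 6.35% in cortex. Apod rose 2.00-fold in cortex (1.00 ± 0.13, adjusted p = 2.12e-05) and 2.41-fold in hippocampus (1.27 ± 0.26, adjusted p = 0.00497). Without mouse 16, the highest library, the log2 fold change in hippocampus was 0.93 (adjusted p = 0.00181, in a range of 3.25e-22 to 0.326 over all alternatives).

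Apoc1, a small apolipoprotein of the gene cluster that holds Apoe, was low, and its counts ran from 3 to 43 in single control libraries and from 11 to 92 in those of GA-Camk2a mice. In cortex the controls had 2.93, 11.3, 2.93, 7.98 and 3.59 CPM, and the GA-Camk2a libraries 7.02, 14.6 and 18.8 CPM at the lowest, median and highest. In hippocampus the controls had 4.43, 8.10, 5.59 and 9.88 CPM, and the GA-Camk2a libraries 9.45, 15.2 and 32.0 CPM. The groups overlapped in each tissue, with 4 of 6 GA-Camk2a libraries of cortex and 5 of 6 of hippocampus above the highest control. Apoc1 had the largest fold of the members tested, 2.87 in cortex (1.52 ± 0.25, adjusted p = 0.000244) and 2.504 in hippocampus (1.32 ± 0.31, adjusted p = 0.0110). The 95% intervals of these folds were 2.00 to 4.12 and 1.59 to 3.93. In cortex Apoc1 met the filter on low counts only with the help of GA-Camk2a libraries (6 of 6, against 2 of 5 controls), so that this call is given as a description. Without the 5 hippocampus libraries rich in choroid plexus markers its log2 fold change was 1.44 and no longer passed (adjusted p = 0.0728, in a range of 1.14e-06 to 0.248 over all alternatives). The hippocampus call was also lost with thinned counts (1.34, adjusted p = 0.0777).

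**Figure D1:**
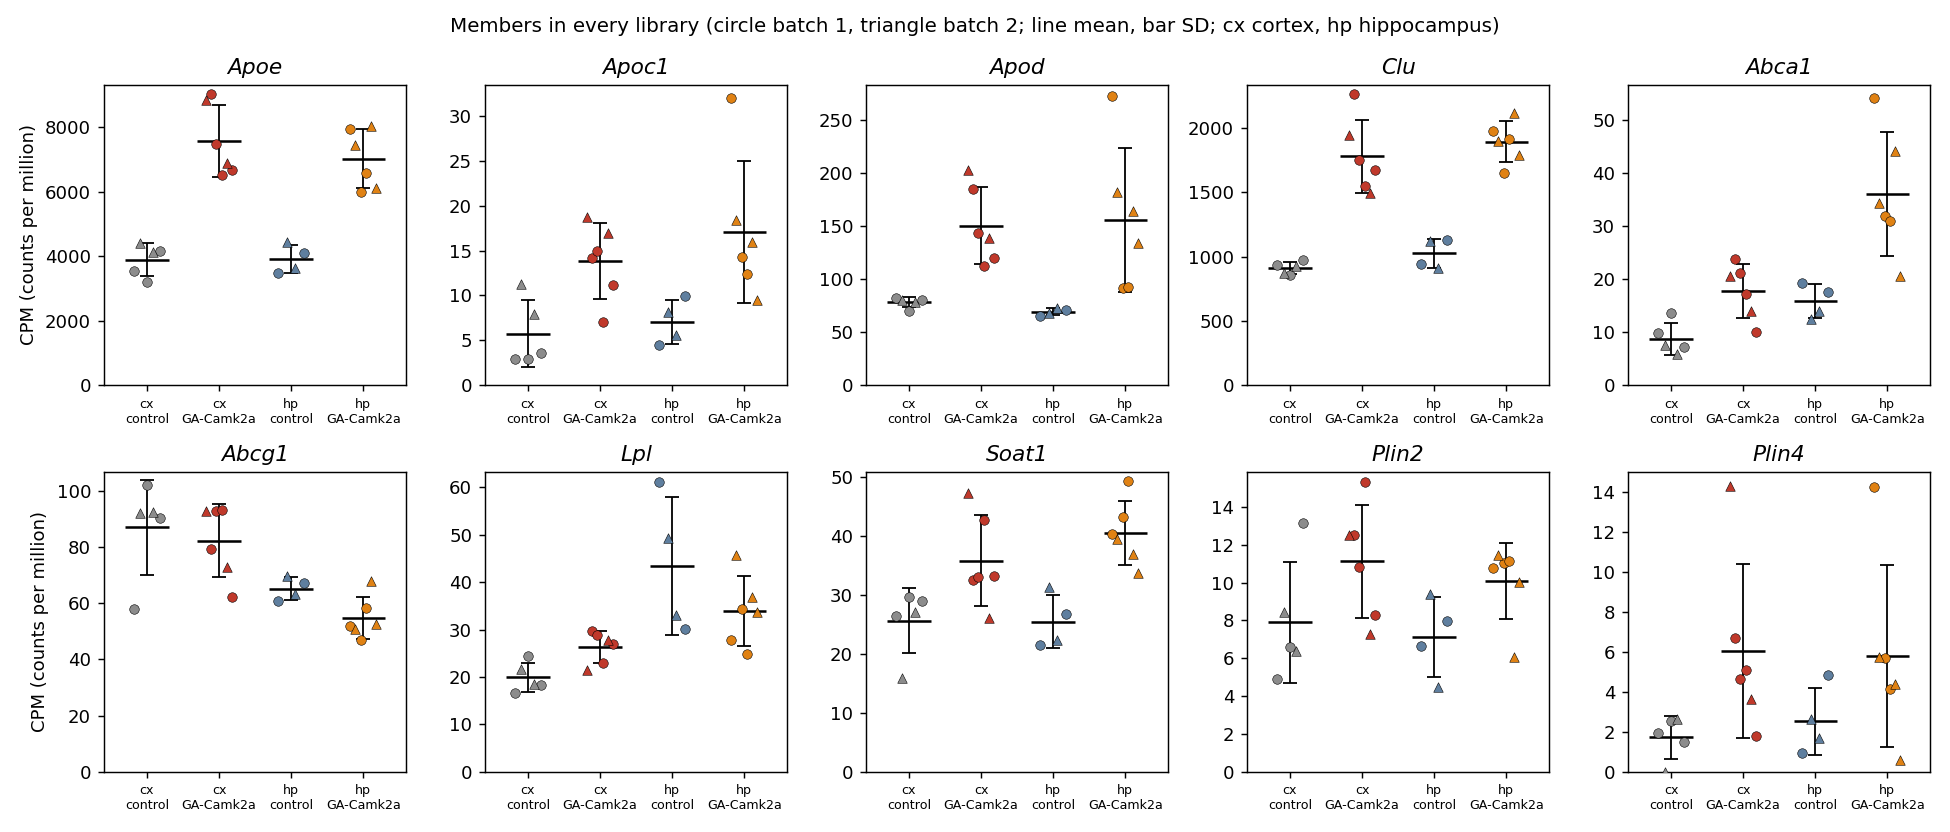
CPM of the 10 genes in each of the 21 libraries by tissue and genotype, circles for batch 1 and triangles for batch 2, with the group mean as a line and the SD as a bar. Apoe, Apod and Clu were separate between genotypes in both tissues, and Abcg1 overlapped in both.

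The exporters differed from each other. Abca1 loads cholesterol onto lipid-poor apolipoproteins, the step that starts a lipoprotein particle. In cortex it was at 9.78, 7.51, 13.5, 5.85 and 7.17 CPM in the controls and at 10.1, 18.9 and 23.8 CPM at the lowest, median and highest GA-Camk2a library, so that mouse 41 fell within the control range. In hippocampus the controls had 19.3, 12.4, 13.98 and 17.6 CPM and the GA-Camk2a libraries 20.7, 33.1 and 54.2 CPM, with no overlap. Abca1 rose 2.02-fold in cortex (1.02 ± 0.25, adjusted p = 0.00873) and 2.44-fold in hippocampus (1.29 ± 0.21, adjusted p = 0.00108). The cortex call was lost with counts thinned to the smallest library (1.13, adjusted p = 0.0781) and in each batch alone, with adjusted p-values of up to 0.0954 over all alternatives. Without the 5 libraries rich in choroid plexus markers the hippocampus value was 0.86 (adjusted p = 0.1002, in a range of 2.50e-11 to 0.132 over all alternatives), whereas with the marker level as a covariate and all libraries kept it was 1.29 (adjusted p = 0.000267).

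Abcg1, which passes cholesterol on to particles that are already formed, did not rise in either tissue. Cortex controls had 57.7, 92.0, 102, 92.6 and 90.3 CPM and GA-Camk2a cortex 62.3, 86.0 and 93.2 CPM at the lowest, median and highest, a difference of -0.06 ± 0.13 on the log2 scale (adjusted p = 0.820). The 95% interval of this difference, -0.33 to 0.21, holds folds up to 1.16. In hippocampus the controls had 60.8, 69.7, 63.2 and 67.0 CPM and the GA-Camk2a libraries 46.9, 52.2 and 67.8 CPM. There 5 of 6 GA-Camk2a libraries lay below the lowest control, but the difference of -0.17 ± 0.10 did not pass (adjusted p = 0.322, 95% interval -0.39 to 0.04). The intervals of Abca1, 0.50 to 1.54 in cortex and 0.84 to 1.74 in hippocampus, lie above those of Abcg1, although the difference between these genes was not itself tested.

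Lpl, lipoprotein lipase, which releases fatty acids from the triglycerides of lipoproteins and is a marker of lipid-handling microglia as well as of some neurons, was called higher in cortex and not in hippocampus. Cortex controls had 16.6, 21.6, 24.5, 18.6 and 18.2 CPM and the GA-Camk2a libraries 21.4, 27.4 and 29.7 CPM at the lowest, median and highest, 4 of 6 above the highest control. The rise of 1.37-fold was close to the threshold (0.45 ± 0.15, adjusted p = 0.0475). The call was lost in 7 of 11 fits that left out a library (controls 11, 37 and 38 and mice 23, 30, 35 and 41), with adjusted p-values from 0.0703 without mouse 30 to 0.149 without control 38. With DESeq2 the adjusted p was 0.124, and over all alternatives it ranged from 0.0224 to 0.631. In hippocampus controls 11 and 20 had 61.1 and 49.3 CPM and controls 31 and 37 had 33.0 and 30.1 CPM, while the GA-Camk2a libraries had 24.8, 33.99 and 45.8 CPM. That difference of -0.30 ± 0.20 did not pass (adjusted p = 0.378, 95% interval -0.73 to 0.12) and was 0.02 without control 11.

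Soat1 encodes the enzyme that esterifies cholesterol for storage in droplets. In hippocampus it was at 21.5, 31.3, 22.4 and 26.8 CPM in the controls and at 33.7, 39.9 and 49.2 CPM at the lowest, median and highest GA-Camk2a library, with no overlap between the groups. It rose 1.67-fold there (0.74 ± 0.13, adjusted p = 0.00135). This call was lost with thinned counts (1.42, adjusted p = 0.0789) and in each batch alone, with adjusted p-values of up to 0.117 over all alternatives. In cortex the controls had 26.4, 15.96, 29.6, 27.1 and 29.0 CPM and the GA-Camk2a libraries 26.1, 33.0 and 47.3 CPM, 5 of 6 above the highest control. The cortex difference was 0.45 ± 0.16 and did not pass (adjusted p = 0.0724, 95% interval 0.12 to 0.79), and without mouse 35, the lowest GA-Camk2a library, it was 0.54 (adjusted p = 0.0364, in a range up to 0.369 over all alternatives).

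Plin2 coats lipid droplets in most cell types. Its counts were few, from 5 to 50 per library. Cortex controls had 4.89, 8.45, 6.58, 6.38 and 13.2 CPM and GA-Camk2a cortex 7.27, 11.7 and 15.3 CPM at the lowest, median and highest. Hippocampus controls had 6.65, 9.42, 4.47 and 7.95 CPM and GA-Camk2a hippocampus 6.07, 10.9 and 11.4 CPM. In hippocampus 5 of 6 GA-Camk2a libraries were above the highest control, whereas in cortex control 38 was higher than all but mouse 34. Neither difference passed, with 0.40 ± 0.25 in cortex (adjusted p = 0.332, 95% interval -0.12 to 0.92) and 0.52 ± 0.22 in hippocampus (adjusted p = 0.145, 95% interval 0.06 to 0.98), and these intervals hold folds of up to 1.90 and 1.98.

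Plin4, a perilipin best known from adipocytes and muscle, was near the limit of detection and had too few counts in cortex to enter the test across genes. The controls of cortex had 2, 0, 7, 5 and 5 counts, or 1.96, 0, 2.56, 2.66 and 1.49 CPM, and the 0 of control 20 allows a level of up to 2.82 CPM (3 counts). The GA-Camk2a libraries of cortex had 16, 16, 9, 8, 6 and 5 counts in mice 16, 23, 30, 34, 35 and 41, or 1.80, 4.87 and 14.3 CPM at the lowest, median and highest. The 5 libraries other than mouse 41 lay above the highest control. On the log2 CPM scale (prior count 2), controls averaged 1.21 and GA-Camk2a libraries 2.57, a difference of 1.36 (exact two-sided permutation test over the libraries, p = 0.0216, where the smallest p the design allows is 0.00433). With the filter on low counts removed, the edgeR log2 fold change was 1.54 ± 0.39 (adjusted p = 0.00491). The permutation test did not take batch into account. In batch 1 alone edgeR gave 1.198 ± 0.49 (adjusted p = 0.162), and the difference of mean log2 CPM was 0.84 in batch 1 and 2.26 in batch 2.

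In hippocampus Plin4 was at 0.949, 2.64, 1.68 and 4.82 CPM in the controls and at 0.590, 5.04 and 14.3 CPM at the lowest, median and highest GA-Camk2a library. Mouse 16 had 41 counts and mouse 41 had 1. The groups overlapped, with 3 of 6 GA-Camk2a libraries above the highest control, and the difference of 1.18 ± 0.49 did not pass (adjusted p = 0.144, 95% interval 0.14 to 2.22). It passed with the filter on low counts removed (1.10, adjusted p = 0.0275, against up to 0.444 over the other alternatives). Leaving out each library in turn gave log2 fold changes of 0.73, without mouse 16, to 1.54. The difference of mean log2 CPM was 1.31 in batch 1 and 0.31 in batch 2.

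In all, 6 of the 9 members tested were called higher in GA-Camk2a cortex, where 6.35% of 13058 genes were called higher and 12.5% were called in either direction. In hippocampus 6 of 10 members were called higher, against 4.97% of 14884 genes called higher and 10.9% in either direction. These counts leave out Plin4 in cortex, and 3 members met the filter on low counts only with the help of GA-Camk2a libraries. In cortex the filter asked for 5.06 CPM in 5 libraries, which 2 of 5 controls and 6 of 6 GA-Camk2a libraries reached for Apoc1 and 4 and 6 for Plin2. In hippocampus it asked for 3.94 CPM in 4 libraries, which 1 of 4 controls and 5 of 6 GA-Camk2a libraries reached for Plin4. Apoe, Apoc1, Apod, Clu and Abca1 passed in both tissues, Apoc1 in cortex with the help of GA-Camk2a libraries in the filter. Lpl passed in cortex and Soat1 in hippocampus, and Abcg1 and Plin2 passed in neither. No member was called lower by edgeR, DESeq2 or limma-voom, against 6.17% of all genes in cortex and 5.97% in hippocampus with edgeR, and 0 were lower at an unadjusted p under 0.05. The median log2 fold change of the members tested was 1.00 in cortex and 0.95 in hippocampus, and that of all genes tested was -0.01 and 0.02. Groups did not overlap for 3 members in cortex and for 5 in hippocampus, each with the GA-Camk2a libraries on top, which was so for 2.93% and 3% of all genes tested. For 0 members did every GA-Camk2a library lie below every control, which was so for 3.42% of genes in cortex and 8.43% in hippocampus.

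**Figure D2:**
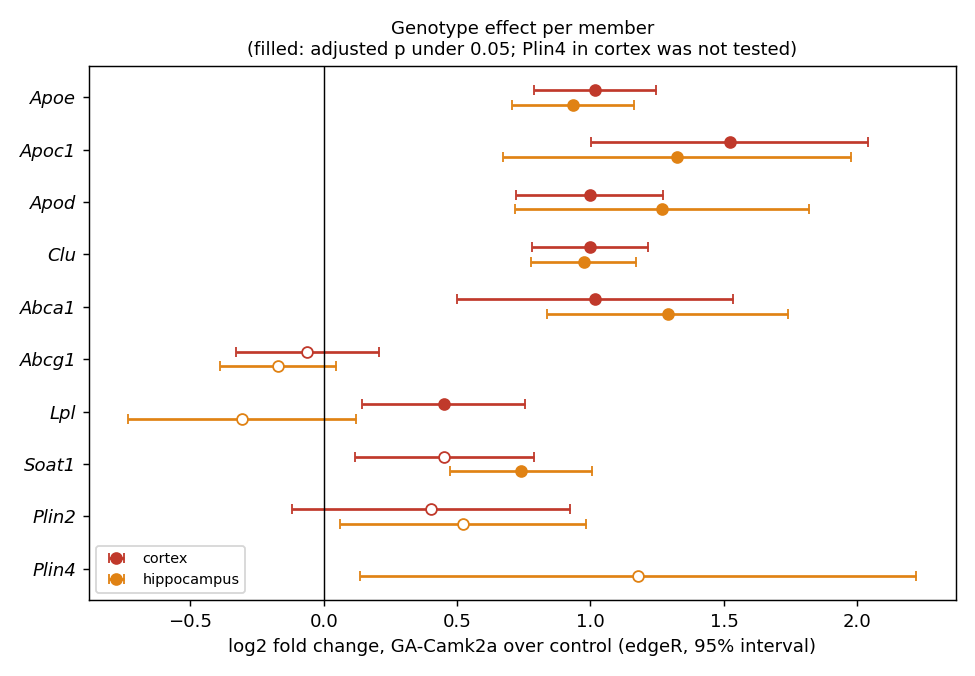
Log2 fold change of GA-Camk2a over control for each gene with its 95% interval from edgeR, red for cortex and orange for hippocampus, filled where the adjusted p was under 0.05. Intervals of Apoe, Apoc1, Apod, Clu, Abca1 and Soat1 lie above 0 in both tissues, although Soat1 was not called in cortex. Those of Abcg1 include 0.

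Libraries carry a batch label that is spread over both genotypes, and the member differences were recomputed within each batch from mean log2 CPM. The differences for Apoe were 1.03 in batch 1 and 0.87 in batch 2 of cortex and 0.85 and 0.83 in hippocampus. For Clu the values of batches 1 and 2 were 0.96 and 0.92 (cortex) and 0.84 and 0.93 (hippocampus). Apod, Apoc1 and Abca1 were also higher within each batch of each tissue, from 0.76 for Abca1 in batch 1 of cortex to 1.62 for Apoc1 in the same batch. Soat1 was higher by 0.86 and 0.46 in batches 1 and 2 of hippocampus, and Lpl in cortex by 0.45 and 0.28. With 2 to 4 libraries a group in a single batch, edgeR lost calls in all 4 fits of 1 batch alone. In cortex these were Abca1 and Lpl in batch 1 and Apoc1, Abca1 and Lpl in batch 2. In hippocampus they were Apoe, Apoc1, Apod, Abca1 and Soat1 in batch 1 and Apoc1 and Soat1 in batch 2. Clu passed in each.

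The tests of the difference between tissues ask whether a gene responded more in hippocampus than in cortex. No member passed with edgeR, DESeq2 or limma-voom, where edgeR called 0.4% of 14751 genes (59, 22 of them with the larger value in hippocampus and 37 with the smaller, and 34 and 35 with RLE normalization). At an unadjusted p under 0.05 there was 1 member, Lpl, whose effect in hippocampus was lower by -0.78 ± 0.26 on the log2 scale (edgeR adjusted p = 0.243, 95% interval -1.32 to -0.24). That Lpl passed in cortex and Soat1 in hippocampus is thus not shown to be a difference between the tissues. The other members had adjusted p-values of 0.73 to 0.98.

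Tissue set the baseline of 3 members in controls. Abca1 was higher in hippocampus than in cortex by 0.88 ± 0.21 (adjusted p = 0.00874), Lpl by 1.10 ± 0.21 (adjusted p = 0.00135), and Abcg1 was lower by -0.48 ± 0.12 (adjusted p = 0.0109), in a comparison that called 16.3% of 14435 genes, 8.69% higher and 7.6% lower in hippocampus. Without the choroid-rich libraries Abcg1 was at -0.49 (adjusted p = 0.0595, in a range up to 0.230 over all alternatives). With thinned counts the calls of Abca1 (adjusted p = 0.148) and Abcg1 (adjusted p = 0.230) in controls were lost. The 5 libraries of cortex had a mean Abca1 level of 8.77 ± 3.01 CPM (SD, n = 5), the hippocampus controls 15.8 ± 3.17 CPM (SD, n = 4). In GA-Camk2a mice, with 33.2% of 13098 genes called, Abca1 stood at 17.8 ± 5.09 CPM (SD, n = 6) in cortex and 36.0 ± 11.6 CPM (SD, n = 6) in hippocampus (1.09 ± 0.22, adjusted p = 0.00129). The order of its group means was therefore control cortex, control hippocampus, GA-Camk2a cortex and GA-Camk2a hippocampus, and the middle pair overlapped within their SDs. Abcg1 kept its lower level in hippocampus (-0.59 ± 0.12, adjusted p = 0.00112). Lpl was higher in hippocampus by 0.30 ± 0.14 in GA-Camk2a mice and did not pass (adjusted p = 0.118), but passed in the fit with the mouse as a block (0.34, adjusted p = 0.0476). Apoe, Clu, Apod, Apoc1, Soat1 and Plin2 did not pass between the tissues in either genotype. Soat1 did pass in GA-Camk2a mice in the fit without the cortex library of mouse 16 (adjusted p = 0.0352). Apoe means of controls, 3893 ± 507 CPM in cortex (SD, n = 5) and 3913 ± 430.5 CPM in hippocampus (SD, n = 4), were nearly the same.

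The GA-Camk2a mice differed in how far the members rose. In cortex mouse 16 had the highest level of the 6 for Apoc1, Apod, Soat1 and Plin4, mouse 23 for Apoe, Clu, Abca1 and Lpl, and mouse 34 for Abcg1 and Plin2. In hippocampus mouse 16 was highest for Apoc1, Apod, Abca1 and Plin4, mouse 35 for Apoe, Clu and Abcg1, mouse 23 for Lpl and Plin2, and mouse 34 for Soat1. The lowest levels in cortex were spread over mouse 34 (Apoe, Apoc1 and Apod), mouse 35 (Clu, Soat1 and Plin2), mouse 41 (Abca1, Abcg1 and Plin4) and mouse 16 (Lpl). In hippocampus they were in mouse 41 (Apoc1, Abca1, Soat1 and Plin4), mouse 30 (Apoe, Apod, Clu and Abcg1), mouse 34 (Lpl) and mouse 35 (Plin2). Mouse 16 had a hippocampus library with 54534 CPM of choroid plexus markers and 1436 CPM of microglia markers, the highest of its group for each list, and the part of these in its levels was not tested. Its cortex library had 1932 CPM of choroid plexus markers, within the range of cortex controls, and 2096 CPM of microglia markers, the highest of the 6.

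**Figure D3:**
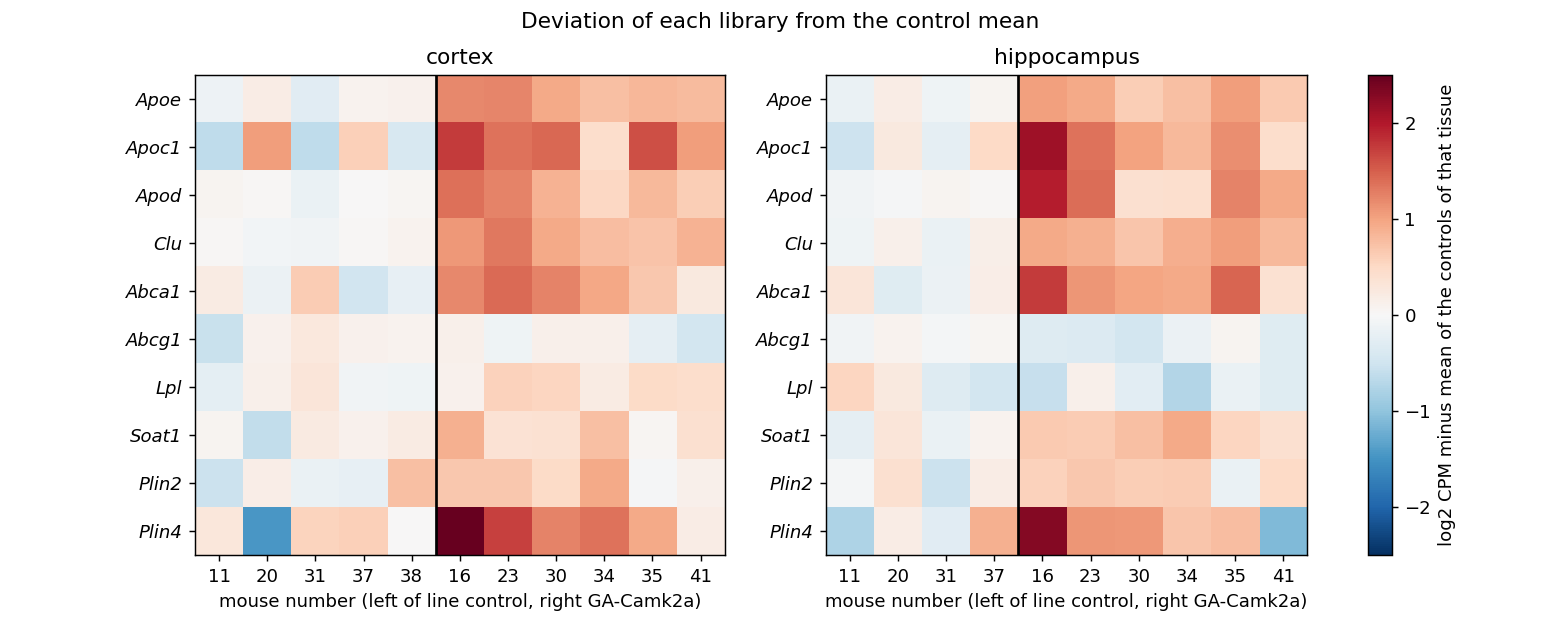
Log2 CPM of each gene in each library minus the control mean of that tissue, with mice in columns, controls left of the line and red for higher. All 6 GA-Camk2a mice were above the control mean for Apoe, Apoc1, Apod, Clu, Abca1 and Soat1 in each tissue, and 5 of 6 were below it for Abcg1 and Lpl in hippocampus.

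The pattern over the 21 libraries was compared between genes as the root mean square difference of log2 CPM, each gene centred on its own mean. Among members the most alike pairs were Apoe with Clu (0.14) and Apoe with Apod (0.27). Of 11452 other genes, those nearest to Apoe were Mt1, a metallothionein, Prdx6, a peroxiredoxin, and Rida, at 0.13, 0.15 and 0.17, where the median gene was at 0.60. Nearest to Clu were Rida, Cnn3 and Prdx6 at 0.16, 0.17 and 0.19, so that Apoe and Clu shared a pair of neighbours. Apod was nearest to Ctsh, a lysosomal protease, Srgn and Sat1 at 0.27, 0.28 and 0.29 (median gene 0.70). Apoc1 and Abca1 have fewer counts and had more distant neighbours, Pdlim4, Mt2 and Mgst1 at 0.44, 0.45 and 0.46 for Apoc1 and S1pr3, Gm14964 and Efemp2 at 0.38, 0.41 and 0.42 for Abca1. These distances describe levels across the same libraries and were not tested.

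Other genes of the pathway were read from 6 lists with 95 genes. In cortex 59 could be tested, of which 6 were called higher and 3 lower, or 15.3% against 12.5% of all genes. In hippocampus 60 could be tested and 7 were called higher and 0 lower, or 11.7% against 10.9% (DESeq2 and limma-voom also called 0 lower, and 5 were lower at an unadjusted p under 0.05 with edgeR). The share of calls in either direction was thus near that of all genes in each tissue. By direction, 6 of 59 were higher and 3 lower in cortex, against 6.35% and 6.17% of all genes. In hippocampus 11.7% were higher and 0 lower, against 4.97% and 5.97% of all genes. Without the choroid-rich libraries 0 of these hippocampus genes were called, and without control 20 or control 37 there were 4 called, in each case Npc1, Npc2 and Srebf1 of the 7 and 1 other gene. Of the 16 calls, that of Npc2 in cortex was kept in all 21 alternatives, and each of the others was lost in 1 or more, with no change of sign. Cidea could be tested in only 14 of the alternatives. Cidea in cortex and Rxrg in hippocampus met the filter on low counts only with the help of GA-Camk2a libraries.

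Of 13 genes of intracellular cholesterol handling tested in each tissue, Npc2, which passes cholesterol out of lysosomes, rose in both. Its level was 55.6 ± 8.11 CPM in cortex controls (SD, n = 5) and 103 ± 10.6 CPM in GA-Camk2a cortex (SD, n = 6), a log2 fold change of 0.93 (adjusted p = 3.90e-06), and 62.5 ± 8.73 CPM (SD, n = 4) and 97.3 ± 17.1 CPM (SD, n = 6) in hippocampus (0.72, adjusted p = 0.00144). Without the choroid-rich libraries its hippocampus value was 0.56 and did not pass (adjusted p = 0.0944, in a range of 5.88e-06 to 0.147 over all alternatives). Its lysosomal membrane partner Npc1 was called higher in hippocampus by 0.58 (adjusted p = 0.00671), and not without these libraries (0.53, adjusted p = 0.248, in a range of 0.00434 to 0.481). In cortex Nceh1, a cholesteryl ester hydrolase, and Osbpl1a, an oxysterol-binding protein, were lower by -0.37 (adjusted p = 0.0204) and -0.40 (adjusted p = 0.00750), and the call of Nceh1 was lost in 7 of 21 alternatives, without control 20 or 31 or mouse 35 among them.

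Of the 11 liver X receptor, retinoid X receptor and PPAR factors and their other targets tested, Srebf1, the regulator of fatty acid synthesis that liver X receptors induce, rose in both tissues. It was at 21.4 ± 7.67 CPM in cortex controls (SD, n = 5) and 38.5 ± 6.53 CPM in GA-Camk2a cortex (SD, n = 6), with 0.79 on the log2 scale (adjusted p = 0.00188), and rose in hippocampus by 0.84 (adjusted p = 0.000399). Without the choroid-rich libraries the hippocampus value was 0.53 and did not pass (adjusted p = 0.174, in a range of 5.36e-07 to 0.306 over all alternatives). Arl4c, another known target, rose in hippocampus by 0.60 (adjusted p = 0.0276). Rxrg, a retinoid X receptor, was called higher in hippocampus by 0.98 (adjusted p = 0.0206), with 5.76 ± 1.63 CPM in controls (SD, n = 4) against 10.1 ± 3.02 CPM (SD, n = 6). It met the filter on low counts there only with the help of GA-Camk2a libraries (6 of 6, against 3 of 4 controls), so that this call is given as a description. In cortex Rxrg was at 23.4 ± 4.30 CPM in controls (SD, n = 5) and 14.7 ± 4.43 CPM in GA-Camk2a mice (SD, n = 6), a fall that was not called. Its effects differed between the tissues by 1.58 ± 0.33 (adjusted p = 0.0271), the only gene of the 59 tested for this that passed. That call was lost in 7 of 30 alternatives (adjusted p up to 0.502), with the mouse as a replicate block (1.68, adjusted p = 0.0642), thinned counts, without the choroid-rich libraries and without hippocampus control 20 or 37, cortex control 37 or the cortex of mouse 23. The hippocampus call of Rxrg was lost in 7 of 22, and that of Arl4c in 10 of 22. Without the choroid-rich libraries Rxrg was at 0.64 (adjusted p = 0.480, in a range of 0.0135 to 0.559) and Arl4c at 0.80 (adjusted p = 0.104, in a range of 0.00796 to 0.320) in hippocampus. Leaving out control 11, 20 or 37 was enough for Rxrg, and control 20, 31 or 37 or mouse 23 or 41 for Arl4c.

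Of the 8 genes tested from the list of lipoprotein receptors, 1 was called higher in each tissue. This was Scarb2, a lysosomal membrane protein of the scavenger receptor family, by 0.40 in cortex (adjusted p = 0.0389) and 0.49 in hippocampus (adjusted p = 0.0129). The cortex call was lost in 12 of 21 alternatives, with DESeq2 among them (adjusted p = 0.0591, in a range of 0.0223 to 0.435), and the hippocampus call in 6 of 22. Leaving out control 11, 20 or 38 or mouse 16, 30 or 34 was enough in cortex, and control 20 or 37 in hippocampus, where the value without the choroid-rich libraries was 0.46 (adjusted p = 0.135, in a range of 0.00374 to 0.359). Sorl1, a sorting receptor that binds Apoe, fell by 0.45 in cortex (adjusted p = 0.0221), a call lost without control 11 or 31 or mouse 23 or 35 and in 8 of 21 alternatives. Of the sterol and lipid ABC transporters besides the members, Abca5 rose in hippocampus by 0.46 (adjusted p = 0.0121), the only one called of 11. That call was lost in 7 of 22 alternatives, without control 20 or 37 and without the choroid-rich libraries (0.26, adjusted p = 0.541, the highest of the alternatives) among them. In cortex 0 of 10 were called by edgeR, DESeq2 or limma-voom, and 0 had an unadjusted p under 0.05. Of 17 further genes of lipoprotein particles and their remodelling, 3 had enough counts to be tested in each tissue and 0 were called by edgeR, DESeq2 or limma-voom, with 1 higher in each tissue at an unadjusted p under 0.05 in edgeR.

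Of 14 lipid droplet genes tested besides the perilipins Plin2 and Plin4, 3 were called higher in cortex, of which Cidea met the filter on low counts only through GA-Camk2a libraries (5 of 6, against 0 of 5 controls), so that its call is given as a description. Cidea, which promotes the fusion of droplets, was at 1.27 on the log2 scale (adjusted p = 0.00662, and 0.00924 without the filter, in a range up to 0.0683), with 2.95 ± 0.409 CPM in controls (SD, n = 5) against 6.90 ± 2.27 CPM (SD, n = 6), on at most 29 counts per library. G0s2, an inhibitor of droplet lipolysis, rose by 0.71 (adjusted p = 0.0260, lost in 8 of 21 alternatives, without control 11, 37 or 38 or mouse 34 or 35 among them), and Hsd17b11, an enzyme found on droplets, by 0.34 (adjusted p = 0.00705). In hippocampus 0 of the 14 were called by edgeR, DESeq2 or limma-voom, where edgeR had 3 higher and 1 lower with an unadjusted p under 0.05. Cidea was at 4.13 ± 0.895 CPM in controls (SD, n = 4) and 3.15 ± 1.04 CPM in GA-Camk2a mice (SD, n = 6).

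**Figure D4:**
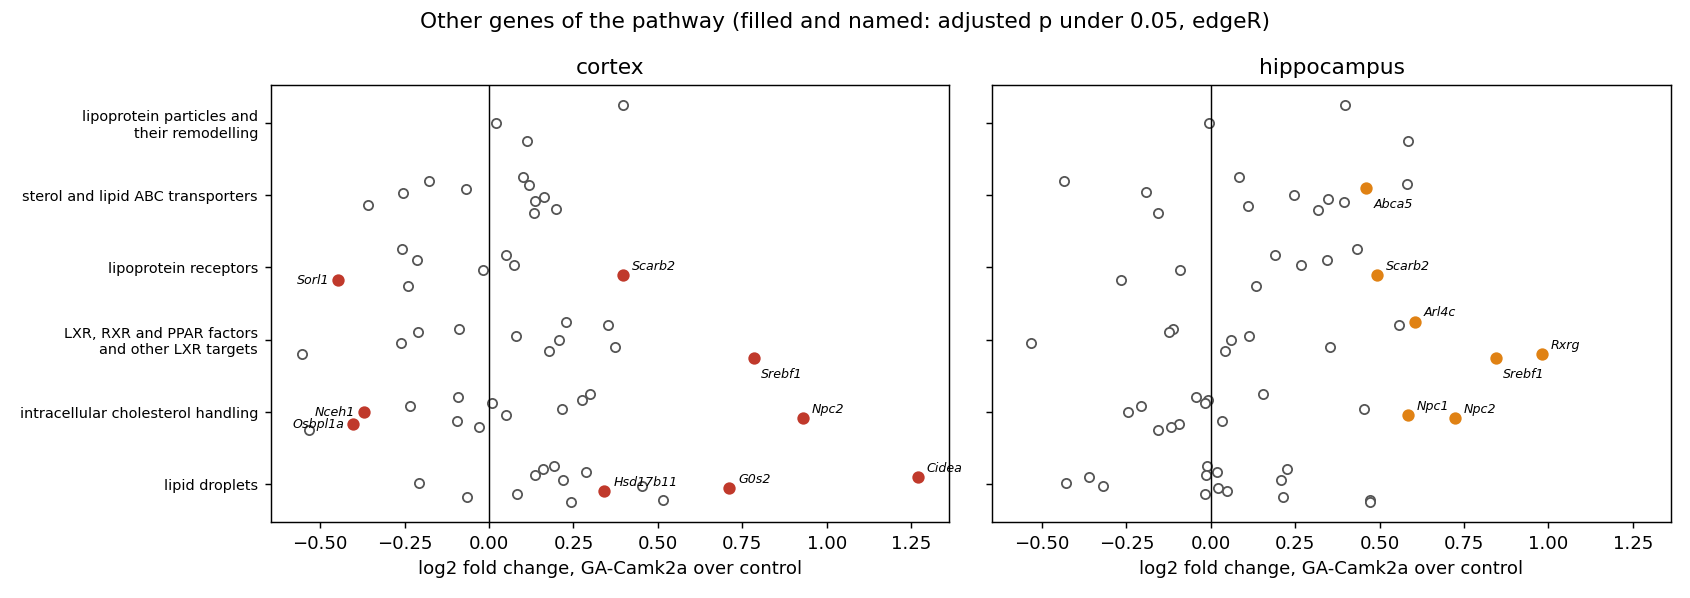
Log2 fold change of GA-Camk2a over control for each tested gene of the 6 pathway lists, filled and named where the edgeR adjusted p was under 0.05. Npc2, Srebf1 and Scarb2 are named in both tissues, Scarb2 in cortex close to the threshold, and the 3 called lipid droplet genes are those of cortex.

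Among cell types known to express members, the markers of microglia and astrocytes moved with the genotype. The 12 microglia markers summed to 518 to 623 CPM in cortex controls and 1386 to 2096 CPM in GA-Camk2a cortex, and to 479 to 559.9 and 918 to 1436 CPM in hippocampus, with 9 of 12 called higher in each tissue. The 10 astrocyte markers summed to 2680.3 to 3476 and 3903 to 5461 CPM in cortex and 3277 to 3498 and 4695 to 5902 CPM in hippocampus, with 7 and 8 of 10 called higher. Neither list overlapped between genotypes, like Apoe and Clu, and their part in the rise of the members was not tested. Of 11 oligodendrocyte markers 2 were called higher in cortex and 1 in hippocampus, with sums of 2685 to 3042 and 2827 to 3756 CPM in cortex and 2825 to 3364 and 2337 to 4333 CPM in hippocampus. Of 7 excitatory neuron markers 5 were called lower in each tissue.

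Non-neural markers were also followed. Those of leptomeningeal fibroblasts, cells that express Apod, summed to 74.2 to 97.4 CPM in cortex controls and 88.4 to 160 CPM in GA-Camk2a cortex, with 2 of 5 tested called higher. In hippocampus they summed to 99.8 to 144 and 172 to 562 CPM, and 0 of 7 were called by edgeR (4 higher at an unadjusted p under 0.05, 0 called by DESeq2 and 1 by limma-voom). The sums thus overlapped between genotypes in cortex and not in hippocampus, and their part in the rise of Apod was not tested. Blood markers, mostly globins, summed to 699 to 963 CPM in cortex controls and 738 to 2175 CPM in GA-Camk2a cortex, with 3 of 4 tested called higher by edgeR, 2 by limma-voom and 0 by DESeq2. In hippocampus they summed to 614 to 851 and 679.6 to 4915 CPM, the highest in mouse 41 and the next at 1589 CPM, and 0 of 4 were called by edgeR, DESeq2 or limma-voom (4 higher at an unadjusted p under 0.05 with edgeR). Pericyte markers summed to 113 to 138 and 137 to 191 CPM in cortex and 132 to 153 and 147 to 189 CPM in hippocampus, with 1 of 3 and 1 of 5 tested called higher. The part of blood and pericytes in the member levels was not tested. Choroid plexus markers were called in 0 of 3 tested in cortex and 0 of 7 in hippocampus by edgeR, DESeq2 and limma-voom, with 0 at an unadjusted p under 0.05. With their level as a covariate the 6 members called in hippocampus passed with log2 fold changes of 0.74 to 1.34. In the fit without the choroid-rich libraries Apoc1 and Abca1 no longer passed. None of the defining markers of these lists was at 0 in every library.

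**Figure D5:**
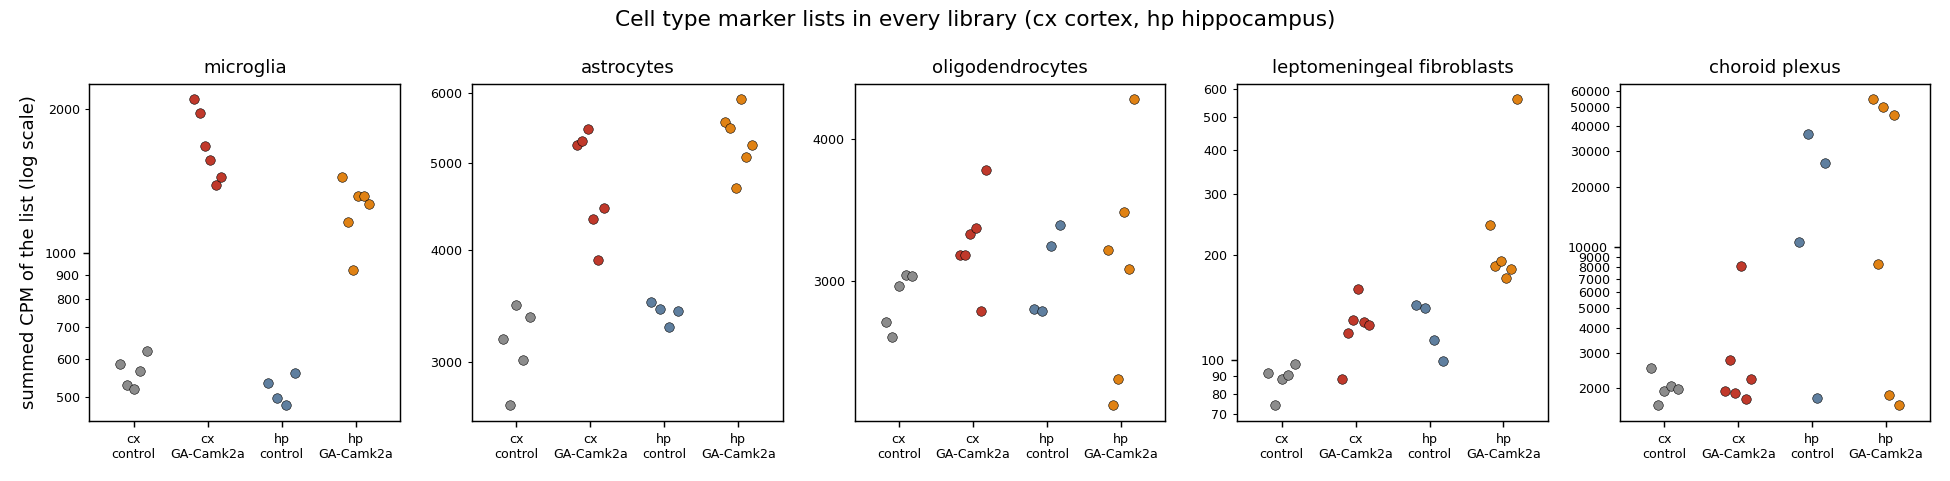
Summed CPM of 5 cell type marker lists in each library on a log axis, by tissue and genotype. Microglia and astrocyte sums are separate between genotypes in both tissues, and choroid plexus sums spread from 1642 to 54534 CPM within hippocampus.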

How the data were processed

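Cortex and hippocampus were measured with prime-seq, a 3′-end bulk RNA-seq protocol with early barcoding. The authors demultiplexed the reads and made the deposited whole-number counts per gene with zUMIs on GRCm39, with a GFP row added. Whether molecules or reads were counted, the annotation, intronic reads and strand are not given in the sources used here, so overlapping genes cannot be told apart, and if reads were counted, counting error understates technical error. Per the labels, the submitters' processing notes name FastQC 0.11.8, cutadapt 1.12, STAR and DESeq2 1.44. Of the count columns, 0 were unused, and symbols of 43308 rows (96.1% of counts) came from a GENCODE annotation of another build, so member coordinates are RefSeq's on GRCm38.p6.

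Library totals had a median of 1975173, and the 46 pairs of libraries within groups differed by 2.10 to 15.1 chi-square per degree of freedom, so each library was kept as a replicate. CPM used TMM effective library sizes, and log2 CPM a prior count of 2. Effects were tested with edgeR 4.0.16 in R 4.3.3 (quasi-likelihood F-test, filterByExpr with a minimum count of 10, batch as a covariate), with Benjamini-Hochberg adjustment over all genes tested and a threshold of 0.05. Adjusted p-values come from edgeR unless DESeq2 1.42.0 or limma 3.58.1 is named. For this line the methods name DESeq2 and state no covariate, so DESeq2 without one was run as an alternative for the genotype effects, beside DESeq2 with batch, limma-voom with batch and sample quality weights, edgeR without it, other normalizations, no filter, thinned counts, single batches and leaving out each library. Fits with choroid plexus markers as a covariate, or without the libraries rich in them, were added after seeing the data. The steps were tested on simulated data. Intervals and floors cover 95% and 3 counts.

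The members, gene lists, marker lists and tests were chosen with earlier results of these data known. Named were all 10 members, each pathway gene called in a tissue, and the 3 genes nearest in pattern to each member called in both tissues, out of genes with an average log2 CPM of at least 3. Pairing follows from the labels, since the tissues of 10 mice share the animal: deviations of the 2 libraries of a mouse from their group means correlated over 11833 genes by -0.13 to 0.24, median 0.01, with 4 of 10 over 0.1.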

Additional observations from a re-analysis of the deposited data

Results flagged for a closer look

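Of 40 groups of 4 to 6 libraries (10 genes in 4 groups), 4 held a library farther from the others than Dixon's 95% limit allows, where chance gives about 1 in 20 groups, or 5%. Apod was low in cortex control 31, with 69.5 CPM against 78.7 CPM in the nearest control. Abcg1 was low in cortex control 11, with 57.7 CPM against 90.3 CPM in the nearest. Soat1 was low in cortex control 20, with 15.96 CPM on 17 counts against 26.4 CPM. Plin2 was low in hippocampus of GA-Camk2a mouse 35, with 6.07 CPM on 11 counts against 10.0 CPM. No member's genotype effect passed the test of a difference between the tissues with edgeR, DESeq2 or limma-voom (1 member, Lpl, at an unadjusted p under 0.05).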

How the results depend on the processing

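For members called in a tissue, 258 alternative fits of the genotype effect were run. The call was kept in 229, lost in 29, and the sign changed in 0. For members not called, 2 of 147 fits gained a call and 6 changed sign. The calls of Clu were kept in every fit run, those of Apoe and Apod in every one but batch 1 alone in hippocampus, and Lpl in cortex was the least stable. Removing 5 choroid-rich libraries, chosen after seeing the data, leaves 2 controls and 3 GA-Camk2a mice. Plin4 had 0 to 7 counts in cortex controls. Causes of changes were not tested.

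For the genotype effect in cortex 1635 genes were called, and 694 with thinned counts, 876 in batch 1, 230 in batch 2 and 1038 (without control 31) to 1526 leaving out each library. For the genotype effect in hippocampus there were 1628, and 402 with thinned counts, 115 in batch 1, 681 in batch 2, 389 without the choroid-rich libraries and 1038 (without control 31) to 1831 leaving out each library. The difference of the genotype effects between tissues gave 59, and 113 with DESeq2, 159 without the filter, 36 without the batch term, 0 with thinned counts, 15 without the choroid-rich libraries and 22 to 66 leaving out each library. Hippocampus against cortex in controls gave 2351, and 563 thinned. Hippocampus against cortex in GA-Camk2a gave 4350, and 2112 thinned. With the mouse as a replicate block, the fits on pairs of tissues gave 67 genes for the difference, 1961 for hippocampus against cortex in controls and 4312 for hippocampus against cortex in GA-Camk2a, and changed no member's call but that of Lpl in GA-Camk2a mice (0.34, adjusted p = 0.0476).

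Signs of values that had not passed reversed as follows. Under the replicate block, Apoc1 and Plin2 were at 0.15 and -0.15 for the difference and Plin2 at 0.000863 between tissues in controls. Thinning gave 0.044 for Abcg1 in cortex, 0.024 for Clu and -0.031 for Plin2 in the difference, and 0.071 for Plin2 between tissues in GA-Camk2a mice, where limma-voom gave -0.067 for Apod. Lpl in batch 2 of hippocampus was at 0.015. Without the choroid-rich libraries the difference was -0.069 for Apod, 0.057 for Clu and -0.18 for Abca1, the tissue contrast -0.081 for Apoc1 in controls, and -0.13 for Apoc1, -0.29 for Apod and 0.094 for Plin2 in GA-Camk2a mice.

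Leaving out each library gave -0.15 to 0.021 for Abcg1 in cortex and -0.46 to 0.018 for Lpl in hippocampus. For the difference it gave -0.15 to 0.0039 for Apoe, -0.47 to 0.18 for Apoc1, -0.049 to 0.42 for Apod, -0.10 to 0.046 for Clu, -0.22 to 0.30 for Plin2 and -0.83 to 0.17 for Plin4. Between tissues in controls it gave -0.17 to 0.042 for Soat1, -0.10 to 0.67 for Apoc1 and -0.37 to 0.14 for Plin2, and in GA-Camk2a mice -0.35 to 0.18 for Apod, -0.018 to 0.48 for Apoc1 and -0.17 to 0.030 for Plin2. The Plin4 difference in cortex ranged from 0.998 to 1.59 (exact permutation p from 0.00794 to 0.0476), and was 1.62 with a prior count of 1.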
